A study of Mus musculus with 12 samples.

Results

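Collagens are encoded by a family of genes, and the genes described here are the rows of a pair of deposited expression tables that are annotated as protein-coding and whose symbol has the form of a collagen chain, such as Col1a1. This gave 44 of the 54532 genes in the tables, and 44 of the 22046 protein-coding genes. By general knowledge of the proteins they were sorted into 11 fibrillar chains, 6 chains of the basement membrane network (type IV), 6 chains of beaded filaments (type VI), 9 fibril-associated chains (FACIT), 3 short-chain network chains, 1 anchoring fibril chain, 2 multiplexins, 4 transmembrane chains and 2 others. The study deleted ieCtnnb1, an intestinal enhancer of Ctnnb1, the gene of β-catenin, in mice and measured RNA in bulk tissue. The libraries fall into 4 groups of 3, all from untreated adult mice of C57BL/6 background. Colon tumors came from APCmin/+ mice, the controls, and from APCmin/+;ieCtnnb1KO mice, also written Ctnnb1 Δi.enh; Apc Min/+, and the study's legends give their age as 5 months. Small intestine crypts came from wild-type mice and from ieCtnnb1KO mice, also written Ctnnb1 Δi.enh. In what follows, knockout and control mean these genotypes within a tissue. The deletion is homozygous and was made in the germline, so it is present in stroma as well as in epithelium. Both tumor groups carry the Apc Min allele, and no normal colon was sequenced. A tumor library mixes tumor epithelium with the fibroblasts, vessels and immune cells of the tumor, whereas the crypts were freed from the tissue with EDTA.

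Each collagen molecule is a triple helix of chains from the same gene or from a few partner genes. Fibrillar collagens form the banded fibrils of the lamina propria and submucosa, type IV collagen forms the sheet-like network of basement membranes under epithelium and around vessels, and type VI collagen forms beaded filaments near cells. In the intestine fibroblasts are the main source of fibrillar and type VI collagen, vessels and stromal cells make much of the type IV collagen, and collagen-rich stroma is a known feature of intestinal tumors. The chains are hydroxylated and folded in the endoplasmic reticulum, trimmed by secreted proteases and crosslinked by lysyl oxidases.

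The values are FPKM, that is, fragments adjusted for the length of the gene in kilobases and for library depth, which allow levels of different genes to be set side by side. Fragments assigned to genes numbered 14648696 to 16156712 in the tumor libraries and 14457896 to 16074777 in the crypt libraries. The targeted gene was used to check the labels. Ctnnb1 (ENSMUSG00000006932) had 299, 364 and 358 FPKM in control tumors and 279, 248 and 250.2 FPKM in knockout tumors. In crypts its level was 121, 134 and 123 FPKM in wild-type libraries and 102, 104 and 105 FPKM in knockout libraries. Within each tissue all 3 knockout libraries lay below all 3 controls. Epithelial markers were abundant in both tissues: the 7 listed genes summed to 2853 to 3798 FPKM in tumors and 3288 to 4383 FPKM in crypts, with Krt8 the most abundant. The 8 fibroblast markers summed to 184 to 279 FPKM in tumors and 6.94 to 11.6 FPKM in crypts. Pdgfra and Dpt were at or below 0.266 FPKM in all crypt libraries, whereas Vim, at 5.43 to 9.03 FPKM, and Thy1, at 1.14 to 2.51 FPKM, were present there.

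Collagen RNA was a small share of the tumor transcriptome and close to absent from crypts. The 44 genes together took 52770 to 120231 fragments of a tumor library and 392 to 862 fragments of a crypt library. Their summed FPKM was 727, 482 and 449 in control tumors and 759, 931 and 807 in knockout tumors. All 3 knockout tumors lay above all 3 controls, although replicate 1 of the controls came close to replicate 1 of the knockout. As a share of all FPKM in a library this was 0.238%, 0.16% and 0.153% in controls and 0.239%, 0.301% and 0.233% in knockout tumors, where the groups overlapped. The summed FPKM in crypts was 6.03, 5.04 and 7.48 in wild-type libraries and 3.26, 4.9 and 4.32 in knockout libraries. Here all knockout libraries lay below all wild-type libraries. As a share of all FPKM this was 0.0015%, 0.00101% and 0.00141% in wild-type and 0.000782%, 0.0012% and 0.000941% in knockout crypts, where the groups overlapped. In bulk tissue, fewer cells of a type and less RNA per cell cannot be told apart.

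Fibrillar chains made up 42.8% to 48.3% of the summed collagen FPKM in the tumor libraries, type IV chains 22.6% to 27.6% and type VI chains 10.6% to 14.4%. The share of multiplexins was higher in all knockout tumors than in all controls (9.04% to 10.5% against 7.16% to 8.99%) and that of transmembrane chains lower, whereas the shares of the other classes overlapped between genotypes. The fibrillar sum was 351, 212 and 192 FPKM in control tumors and 350.0, 445 and 370.5 FPKM in knockout tumors. Control replicate 1 lay just above knockout replicate 1, so the groups overlapped. The type IV sum was 177, 133 and 110.0 FPKM in controls and 192, 210.1 and 206 FPKM in knockout tumors, and the type VI sum was 76.9, 57.3 and 64.8 FPKM against 85.2, 124 and 97.6 FPKM. In these classes every knockout tumor lay above every control. The log2 ratio of the mean summed level, knockout over control, was 0.63 for fibrillar, 0.53 for type IV, 0.62 for type VI, 0.84 for multiplexin and 0.23 for fibril-associated chains, and -0.14 for transmembrane chains.

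**Figure D1:**
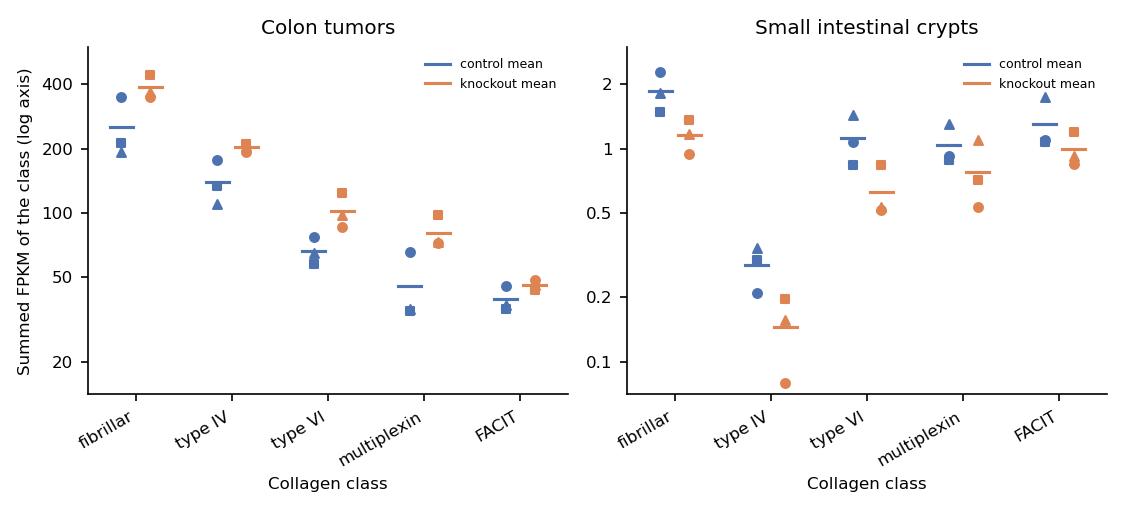
Summed FPKM of 5 collagen classes (log axis) in each library of colon tumors (left) and small intestinal crypts (right), with circles, squares and triangles for replicates 1, 2 and 3, and lines for group means. In tumors the fibrillar sum runs from 192 to 445 FPKM with an overlap between genotypes at replicate 1, and in crypts it runs from 0.942 to 2.3 FPKM and is lower in knockout libraries.

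The first comparison asks whether collagen RNA differed between tumors with and without the enhancer. Genes were tested with limma where their mean was at least 0.5 FPKM over the 6 tumor libraries, which kept 30 of the 44 collagen genes and 16743 genes in all. No collagen gene had an adjusted p under 0.05, and neither did any other gene, so 0% of the genes tested were called. With limma-voom on fragments recovered from the FPKM steps the count was also 0. At an unadjusted p under 0.05 there were 14 of the 30 collagen genes, all higher in the knockout, beside 14.5% of all genes tested in either direction and 8.46% in that direction. Groups did not overlap for 12 of the 30, of which 11 were higher in the knockout, beside 22.1% of all genes tested in either direction and 11.4% in that direction. In total 26 of the 30 were higher in the knockout, beside 51.3% of all genes tested, and their median log2 fold change was 0.53, beside 0.0075 over all genes tested. Of these 26, Col6a5, Col24a1 and Col28a1 had a control mean below the filter and passed only through the knockout group, so they had to be higher. With no filter 32 of the 44 were higher, beside 14735 of 30477 genes in all, and the median was 0.32. Again 14 of the 44 had an unadjusted p under 0.05, all higher. Of the 30477 genes 3020 had such a p, 1600 of them higher. Chains of a family are made by the same cells and are not independent of each other. Rescaling to the same summed FPKM moved the median of all genes to -0.0903 and that of the collagen genes to 0.43. Then 12 collagen genes had an unadjusted p under 0.05, 11 of them higher in the knockout. Of all 16743 genes 2516 had such a p in that fit, 731 of them higher. Under the scalings tried, the direction differed from that of the deposited scaling for Col14a1 only.

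The count of 14 changed when single libraries were left out, with fewer samples fitted each time. Without control replicate 2 it was 9, without control replicate 3 it was 8, without knockout replicate 2 it was 7, and without knockout replicate 3 it was 9. Over all 16743 genes tested, these fits had 1399, 1436, 2545 and 1763 at that unadjusted p, beside 2421 in the main fit. Only the fit without knockout replicate 2 thus had fewer collagen genes but more genes in all. Without knockout replicate 1 the collagen count was 11, beside 1936 genes in all. The collagen count was 17 without control replicate 1, beside 2755 genes in all. That replicate had the highest level of the controls for 26 of the 30 genes. In an alternative added after the data were seen, replicate 3 of both genotypes was left out. The collagen count was then 2, with fewer samples fitted and no count over all genes to set beside it. The replicates left out had Xist, an RNA of female cells, at 114 and 61.4 FPKM, beside no more than 0.0623 FPKM in the other tumors. The labels do not give the sex of the mice, and its part was not tested. Among all 6 tumors, knockout replicate 2 was the highest for 19 genes and control replicate 3 the lowest for 14. Measured against the mean of the controls, the median log2 level of the 30 genes was 0.29, -0.13 and -0.19 in the control libraries and 0.36, 0.64 and 0.51 in the knockout libraries. Controls thus differed among themselves by nearly as much as the groups did, with replicate 1 close to the knockout tumors.

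**Figure D2:**
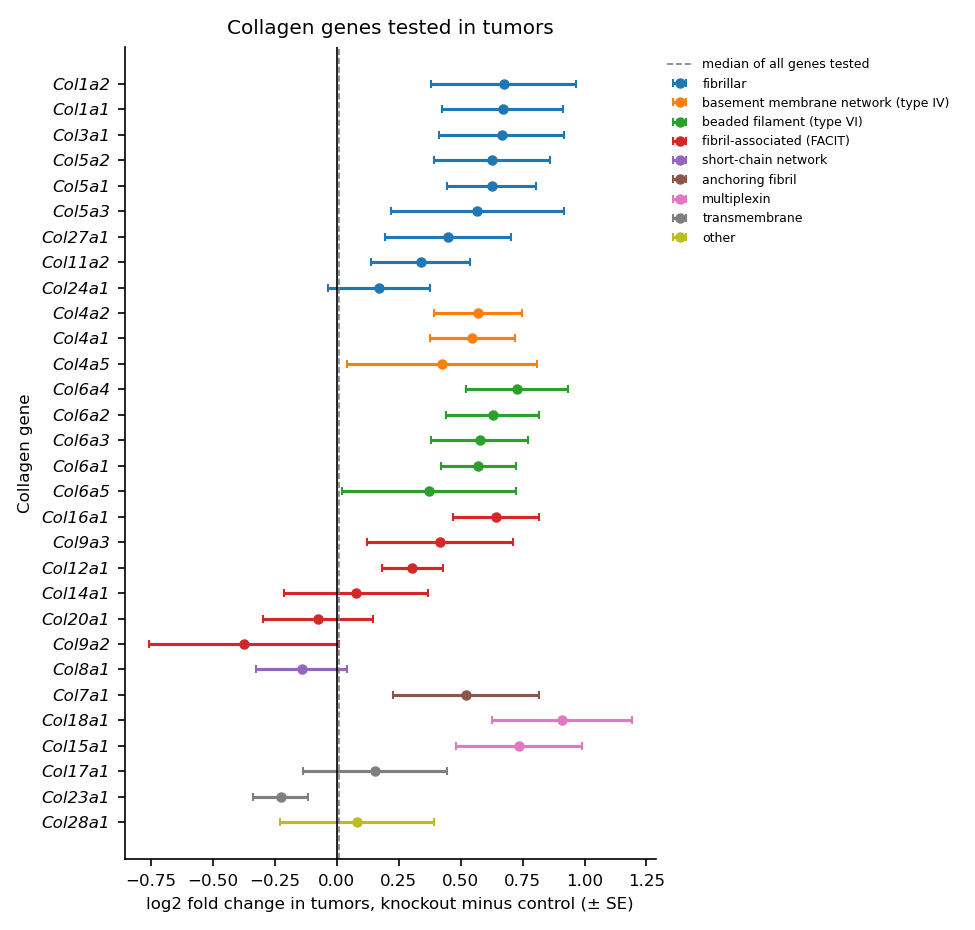
Log2 fold change in tumors, knockout minus control, with its standard error for the 30 collagen genes tested, grouped and coloured by class; the dashed line is the median of all genes tested (0.0075). All fibrillar, type IV, type VI and multiplexin chains tested lie to the right of 0, from 0.17 for Col24a1 to 0.91 for Col18a1. Among them Col24a1 and Col6a5 passed the filter only through the knockout group and had to be higher.

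Type I collagen, the main component of fibrils, is a trimer of α1 and α2 chains. Col1a1 (ENSMUSG00000001506), the most abundant collagen in these tumors per length of the tables, had 137, 81.6 and 68.5 FPKM in control and 144, 151 and 143 FPKM in knockout tumors. The knockout tumors lay close together and above every control, and control replicate 1 was near them while the other controls were well below. The log2 fold change was 0.67 ± 0.245 (SE), with a limma adjusted p of 0.32, and it was positive in all fits without a library. For its partner Col1a2 (ENSMUSG00000029661) the controls had 46.5, 24.6 and 23.8 FPKM and the knockout tumors 44.8, 63.1 and 39.7 FPKM. Here control replicate 1 was above knockout replicates 1 and 3, so the groups overlapped, and the log2 fold change was 0.67 ± 0.293 (SE) with a limma adjusted p of 0.359. Type III collagen is a homotrimer that forms mixed fibrils with type I in soft tissue. Its gene Col3a1 (ENSMUSG00000026043) had 107, 64.6 and 66.8 FPKM in control and 101, 163 and 113 FPKM in knockout tumors. Control replicate 1 lay above knockout replicate 1, and knockout replicate 2 was the highest library. The log2 fold change of Col3a1 was 0.67 ± 0.254 (SE), with a limma adjusted p of 0.327.

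Type V collagen is a minor component inside type I fibrils and helps to start them. Its α1 chain, Col5a1, had 21.03, 14.5 and 13.2 FPKM in control and 22.3, 27.1 and 25.2 FPKM in knockout tumors. For the α2 chain, Col5a2, these were 23.9, 14.5 and 12.1 FPKM and 24.1, 27.0 and 24.7 FPKM. Neither chain's groups overlapped, but for both chains control replicate 1 lay just under the lowest knockout tumor. Their log2 fold changes were 0.62 and 0.63, with limma adjusted p of 0.284 and 0.324. The third chain, Col5a3, had 10.8, 9.1 and 5.52 FPKM in control and 10.6, 8.78 and 20.03 FPKM in knockout tumors. Only knockout replicate 3 stood apart from the controls, and without a library the log2 fold change of 0.57 ranged from 0.23 to 0.80. The other fibrillar genes tested, Col11a2, Col24a1 and Col27a1, had log2 fold changes of 0.34, 0.17 and 0.45 with overlapping groups. Col2a1 and Col11a1, known from cartilage, stayed below the filter, at no more than 0.182 and 0.019 FPKM.

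**Figure D3:**
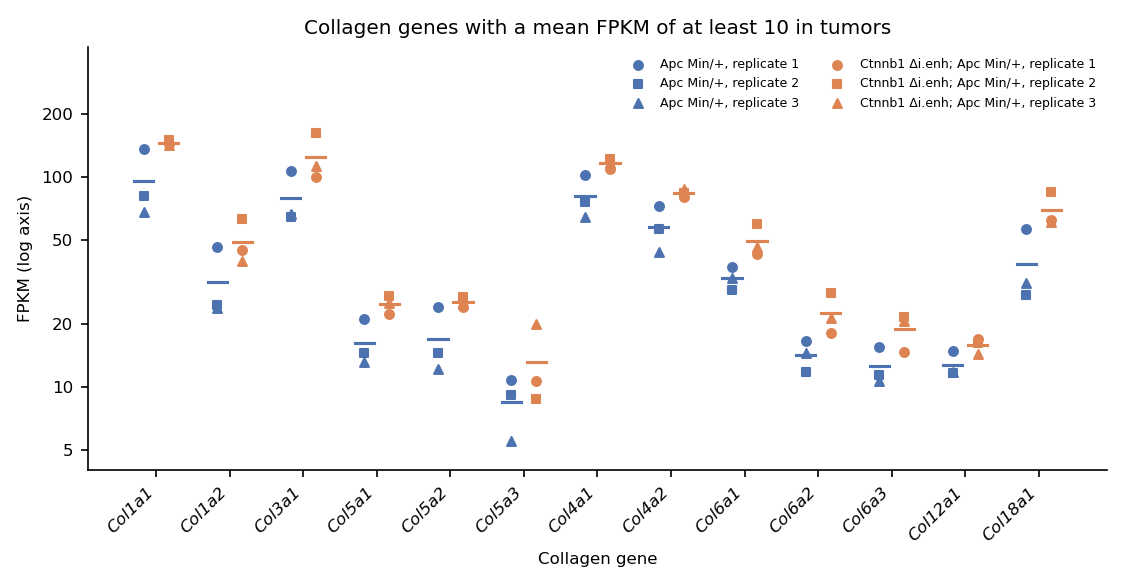
FPKM (log axis) of the 13 collagen genes with a mean of at least 10 FPKM in tumors, with a point for each library (circles, squares and triangles for replicates 1, 2 and 3) and a line for each group mean. For Col1a1 the knockout tumors sit between 143 and 151 FPKM and the controls between 68.5 and 137 FPKM, and control replicate 1 is the control nearest to the knockout tumors for most genes.

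Col1a2 and Col3a1 lie on different chromosomes and had similar fold changes, so their promoters are shown to see what letters they share. They are the RefSeq windows of the build GRCm38.p6, from 250 bases before to 50 after a start site, read 5′ to 3′ on the gene's strand. For Col3a1 this site is the start of the gene in the tables, and for Col1a2 it lies 804 bases inside the gene as the tables bound it. Capitals mark 4 short motifs, searched on both strands so that a match on the other strand shows as its reverse complement. They are the CCAAT box, spelled CCAAT, the GC box, spelled GGGCGG, the TATA box, spelled TATAAA, and a SMAD-type element, spelled CAGACA. No match overlapped a match of another motif in the printed windows.
Col1a2, chr6:4505368-4505667, plus strand: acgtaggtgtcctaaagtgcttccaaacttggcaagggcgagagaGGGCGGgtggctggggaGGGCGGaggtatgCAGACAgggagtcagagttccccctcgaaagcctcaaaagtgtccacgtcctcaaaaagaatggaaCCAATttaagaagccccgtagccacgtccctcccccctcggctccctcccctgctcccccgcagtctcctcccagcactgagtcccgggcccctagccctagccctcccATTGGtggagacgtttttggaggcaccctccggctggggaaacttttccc
Col3a1, chr1:45311288-45311587, plus strand: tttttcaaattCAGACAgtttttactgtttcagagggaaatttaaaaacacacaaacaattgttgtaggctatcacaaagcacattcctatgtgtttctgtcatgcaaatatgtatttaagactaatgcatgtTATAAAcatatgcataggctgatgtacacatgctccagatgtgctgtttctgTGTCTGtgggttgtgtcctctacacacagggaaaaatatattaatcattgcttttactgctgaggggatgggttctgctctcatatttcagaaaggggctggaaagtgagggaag
The Col1a2 window held the CCAAT box 2 times, the GC box 2 times and the SMAD-type element 1 time. The Col3a1 window held the TATA box 1 time and the SMAD-type element 2 times. These matches describe letters and not bound sites. Of the 44 collagen genes 35 had a window in the table, and Col1a1 was among the 9 without one. The GC box was present for 22 of these 35 genes (62.9%) and in 35.7% of all 32851 windows, and the CCAAT box for 13 (37.1%) and in 37.4% of all windows. The TATA box was present for 5 (14.3%) and in 13.6% of all windows, and the SMAD-type element for 9 (25.7%) and in 21% of all windows. A gene counted if any of its windows matched, and the 35 genes had 38 windows, so the shares per gene and per window differ in unit.

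The common type IV molecule consists of Col4a1 and Col4a2 chains. Col4a1 (ENSMUSG00000031502) had 103, 76.0 and 64.8 FPKM in control and 110.2, 123 and 117 FPKM in knockout tumors. Every knockout tumor lay above every control, with control replicate 1 nearest to them. Col4a2 (ENSMUSG00000031503) had 72.7, 56.4 and 44.2 FPKM in control and 80.9, 84.1 and 87.8 FPKM in knockout tumors, again without overlap. The log2 fold changes were 0.55 ± 0.171 (SE) and 0.57 ± 0.177 (SE), and both genes had a limma adjusted p of 0.296. These genes lie head to head on chromosome 8 with start sites 21 bases apart, so their promoter windows share 78 bases. They are printed because the genes share this region and had fold changes of similar size.
Col4a1, chr8:11312777-11313076, minus strand: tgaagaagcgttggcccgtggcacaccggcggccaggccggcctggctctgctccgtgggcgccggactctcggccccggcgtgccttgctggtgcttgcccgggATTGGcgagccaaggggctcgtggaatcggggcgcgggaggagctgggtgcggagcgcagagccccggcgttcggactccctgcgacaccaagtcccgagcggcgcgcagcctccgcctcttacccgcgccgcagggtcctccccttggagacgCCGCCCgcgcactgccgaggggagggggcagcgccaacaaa
Col4a2, chr8:11312555-11312854, plus strand: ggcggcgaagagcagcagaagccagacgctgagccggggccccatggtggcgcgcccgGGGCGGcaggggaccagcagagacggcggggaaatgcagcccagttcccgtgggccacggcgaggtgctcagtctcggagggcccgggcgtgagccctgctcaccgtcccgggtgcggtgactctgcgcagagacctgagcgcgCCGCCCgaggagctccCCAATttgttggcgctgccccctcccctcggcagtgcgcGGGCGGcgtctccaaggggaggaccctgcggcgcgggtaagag
Capitals mark the same motifs. Col4a1 held the CCAAT box 1 time and the GC box 1 time, Col4a2 held them 1 time and 3 times, and neither held the TATA box or the SMAD-type element.

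The other type IV chains, which form networks of more specialised membranes, were scarce. Col4a5 had 1.05, 0.677 and 0.846 FPKM in control and 1.06, 2.78 and 0.659 FPKM in knockout tumors. Only knockout replicate 2 was high, and without it the log2 fold change of 0.43 was -0.0026. Its neighbour on chromosome X, Col4a6, had 0.109, 0.0608 and 0.0755 FPKM in control and 0.0857, 0.469 and 0.0643 FPKM in knockout tumors, with the same library high. Col4a3 and Col4a4, partners of Col4a5 in mature membranes, ranged from 0.0375 to 0.14 FPKM and from 0 to 0.0761 FPKM, with overlapping groups. The 0 was in knockout replicate 2, where a count of 0 allows up to 0.0189 FPKM. Col4a3, Col4a4 and Col4a6 were below the filter and were not tested.

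Type VI collagen is a trimer of Col6a1 and Col6a2 with Col6a3 or a related long chain. Col6a1 (ENSMUSG00000001119), with the smallest p of all collagen genes, had 37.2, 29.1 and 33.2 FPKM in control and 43.0, 59.6 and 46.6 FPKM in knockout tumors. Col6a2 (ENSMUSG00000020241) had 16.5, 11.7 and 14.4 FPKM in control and 18.1, 28.0 and 21.2 FPKM in knockout tumors. For both chains all knockout tumors were above all controls and knockout replicate 2 was the highest. Their log2 fold changes were 0.57 ± 0.15 (SE) and 0.63 ± 0.189 (SE), with limma adjusted p of 0.27 and 0.293. Col6a3 had 15.5, 11.4 and 10.7 FPKM in control and 14.6, 21.6 and 20.7 FPKM in knockout tumors. Control replicate 1 was above knockout replicate 1, and the log2 fold change was 0.58 with a limma adjusted p of 0.308. Col6a4, one of the related long chains, had 7.14, 4.75 and 6.2 FPKM in control and 9.05, 13.4 and 8.75 FPKM in knockout tumors. Its groups did not overlap, and the log2 fold change was 0.73 with a limma adjusted p of 0.28. Col6a5 had 0.518, 0.296 and 0.334 FPKM in control and 0.489, 1.38 and 0.293 FPKM in knockout tumors, high in knockout replicate 2 only, and its log2 fold change of 0.37 was 0.0125 without that library. Col6a6 was at or below 0.0068 FPKM in every tumor, within what a count of 0 allows (0.0219 FPKM).

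Multiplexins sit in basement membranes, and the end of the type XVIII chain is released as endostatin, an inhibitor of vessel growth. Col18a1 (ENSMUSG00000001435) had 56.7, 27.3 and 31.2 FPKM in control and 62.4, 85.1 and 61.3 FPKM in knockout tumors. All knockout tumors were above all controls, and control replicate 1 was about as high as the lowest of them. Its log2 fold change of 0.91 ± 0.283 (SE) was the largest among the 30 collagen genes tested, with a limma adjusted p of 0.296, and it ranged from 0.70 to 1.22 in fits without a library. Col15a1, expressed by vessels and stroma, had 8.65, 7.27 and 4.18 FPKM in control and 9.43, 12.3 and 11.6 FPKM in knockout tumors. Its groups did not overlap either, and its log2 fold change was 0.74 with a limma adjusted p of 0.309, and 0.45 without control replicate 3.

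Fibril-associated chains decorate fibrils and link them to other matrix. Col12a1 had 14.8, 11.6 and 11.8 FPKM in control and 16.8, 16.2 and 14.3 FPKM in knockout tumors. Control replicate 1 lay above knockout replicate 3, and the log2 fold change was 0.30 with a limma adjusted p of 0.338. Col16a1 had 6.75, 4.59 and 4.27 FPKM in control and 7.69, 8.98 and 8.1 FPKM in knockout tumors. Here the groups did not overlap, and the log2 fold change was 0.64 with a limma adjusted p of 0.276. The other fibril-associated chains tested, Col9a2, Col9a3, Col14a1 and Col20a1, had overlapping groups and log2 fold changes from -0.38 for Col9a2 to 0.41 for Col9a3. Col9a1, Col19a1 and Col22a1 were below the filter.

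The anchoring fibril chain Col7a1, which ties basement membranes to the stroma beneath, had 3.84, 3.38 and 2.36 FPKM in control and 3.9, 3.52 and 7.54 FPKM in knockout tumors. Only knockout replicate 3 stood clear of the controls, and the log2 fold change of 0.52, with a limma adjusted p of 0.441, was 0.21 without that library. The short-chain gene Col8a1 had 0.789, 0.998 and 1.18 FPKM in control and 0.896, 0.915 and 0.72 FPKM in knockout tumors, with overlapping groups and a log2 fold change of -0.14, which ranged from -0.24 to -0.0510 without a library. Its partner Col8a2 ranged from 0.1 to 0.344 FPKM and was not tested. Col23a1, a transmembrane chain, had 4.3, 4.13 and 4.28 FPKM in control and 3.8, 3.68 and 3.18 FPKM in knockout tumors. It was the only collagen gene tested with all knockout tumors below all controls, with a log2 fold change of -0.23 ± 0.11 (SE) and a limma adjusted p of 0.388. Col28a1 had 0.642, 0.309 and 0.505 FPKM in control and 0.659, 0.865 and 0.196 FPKM in knockout tumors, and its groups overlapped. Of the 14 collagen genes below the filter, Col10a1 alone had groups that did not overlap, at 0.395, 0.0387 and 0.171 FPKM in control and 0.457, 1.28 and 0.41 FPKM in knockout tumors. It was singled out after its values had been seen.

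Ratios of chains within a library do not depend on how libraries were scaled, and they ask whether partner chains kept their proportion. The ratio of Col1a1 to Col1a2 was 2.95, 3.32 and 2.88 in control and 3.21, 2.39 and 3.6 in knockout tumors. The groups overlapped, and the difference of the mean log2 ratio, knockout minus control, was -0.0106 (exact two-sided permutation p = 1). The ratio of Col4a1 to Col4a2 was 1.41, 1.35 and 1.47 in control and 1.36, 1.46 and 1.33 in knockout tumors. This was the narrowest range, as a fold, of the 7 pairs that could be computed, and the difference of the mean log2 ratio was -0.024 (exact p = 0.7). The ratio of Col6a1 to Col6a2 was 2.25, 2.48 and 2.3 in control and 2.38, 2.13 and 2.2 in knockout tumors. It differed by -0.0683 on the log2 scale (exact p = 0.4). For Col5a1 to Col5a2, Col3a1 to Col1a1 and Col6a3 to Col6a1 the differences were -0.0028, -0.0036 and 0.0171 (exact p = 1 each). Col4a5 to Col4a6 ranged from 5.91 in knockout replicate 2 to 12.4 in knockout replicate 1, with a difference of -0.23 (exact p = 0.8). No pair's groups were apart, and 3 libraries against 3 cannot give an exact p below 0.1. The ratio of Col4a3 to Col4a4 could not be computed, because Col4a4 was at 0 in a library. The gene lengths of the tables equal the summed exons of GENCODE M21 for 42 of the 44 genes, these pairs among them, and per length of the longest coding transcript, an alternative added after the data were seen, the ratio of Col1a1 to Col1a2 ran from 1.14 to 1.71 and that of Col6a1 to Col6a2 from 1.27 to 1.48. The ratio of Col3a1 to Col1a1 ran from 0.702 to 1.08 per length of the tables and from 1.12 to 1.71 per coding transcript, so the order of these genes by level depends on the length used.

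**Figure D4:**
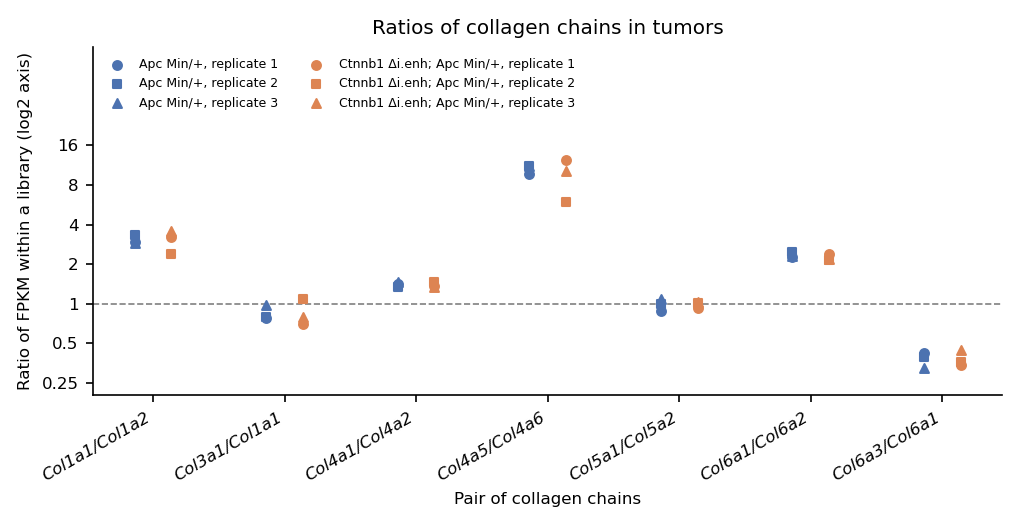
Ratio of the FPKM of 2 collagen chains within each tumor library (log2 axis, dashed line at 1), with circles, squares and triangles for replicates 1, 2 and 3 of each genotype. The Col4a1/Col4a2 ratio stays between 1.33 and 1.47, and Col4a5/Col4a6 is lowest, at 5.91, in knockout replicate 2.

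Crypts served as the contrast, since they are epithelium freed from most of the tissue around it. In crypts 40 of the 44 collagen genes were above 0 in at least 1 library, and Col11a1, Col19a1, Col22a1 and Col24a1 were at 0 in all 6, which allows up to 0.0168, 0.031, 0.0232 and 0.028 FPKM in a library. None reached a mean of 1 FPKM, and 4 passed the filter of 0.5 FPKM among 14176 genes tested. Their means were 0.746 against 0.361 FPKM for Col3a1, 0.702 against 0.382 for Col6a1, 0.689 against 0.435 for Col18a1 and 0.543 against 0.46 for Col20a1, wild-type against knockout. All 4 thus passed only through the wild-type group, so a count or median over them is no evidence of their direction. Col3a1 had 0.737, 0.766 and 0.734 FPKM in wild-type and 0.369, 0.474 and 0.239 FPKM in knockout crypts. Col6a1 had 0.678, 0.567 and 0.859 FPKM in wild-type and 0.281, 0.572 and 0.293 FPKM in knockout crypts. Col18a1 had 0.635, 0.559 and 0.872 FPKM in wild-type and 0.35, 0.408 and 0.548 FPKM in knockout crypts. For Col3a1 and Col18a1 all knockout crypts were below all wild-type crypts, and for Col6a1 knockout replicate 2 lay within the wild-type range. The log2 fold changes were -0.54, -0.46 and -0.34, with limma adjusted p of 0.845, 0.86 and 0.896, and the remaining gene, Col20a1, had -0.10. These values rest on few fragments, 33 to 115 in a library for Col3a1 and 18 to 59 for Col6a1.

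No crypt gene had an adjusted p under 0.05 (0% of those tested), also not with limma-voom on recovered fragments. Before adjustment 5.85% of all genes tested had a p under 0.05, and of the 4 collagen genes Col3a1 did. None of the 4 did without wild-type replicate 1, 2 or 3 or without knockout replicate 1 or 3. With limma-voom 3 did, beside 805 of 14176 genes in all. Groups did not overlap for 11.9% of all genes tested, and 5.15% were apart and lower in the knockout, Col3a1 and Col18a1 among them. With no filter 40 collagen genes were fitted, most of them on very few fragments, and 31 were lower in the knockout, with a median log2 fold change of -0.0425, beside -0.0077 over 26718 genes. Of these 40, 1 had an unadjusted p under 0.05, beside 1349 of the 26718 genes. Higher in the knockout were 9 of the 40, beside 12741 of the 26718 genes. Rescaling to the same summed FPKM shifted the median of all crypt genes that passed the filter from 0.0144 to 0.14. Some stromal markers were present in crypts. Fibroblast markers summed to 11.6, 10.5 and 8.92 FPKM in wild-type and 7.88, 9.34 and 6.94 FPKM in knockout crypts, 73.5% of it Vim, and 2 of the 8 genes passed the filter, both lower in the knockout. The endothelial markers summed to 0.938, 1.09 and 0.969 FPKM against 0.687, 0.813 and 0.822 FPKM, mostly Pecam1. Mesothelial markers summed to 4.86, 2.16 and 5.25 FPKM in wild-type and 1.63, 4.7 and 1.8 FPKM in knockout crypts, with overlapping groups, and 2 of the 3 genes passed the filter, both lower in the knockout. The fibril organisers summed to 5.83, 3.79 and 5.49 FPKM against 1.69, 4.99 and 2.66 FPKM, also overlapping, 67.3% of it Dcn. Dcn itself, named after its values had been seen, had 3.98, 2.23 and 3.72 FPKM against 1.13, 3.6 and 1.79 FPKM. Like Col6a1, the mesothelial sum, the organiser sum and Dcn had their highest knockout value in replicate 2. Ptprc of leukocytes, also named after its values had been seen, had 4.6, 5.0 and 4.52 FPKM against 3.42, 3.74 and 4.38 FPKM, lower in every knockout crypt. Other leukocyte genes, chosen in the same way, had overlapping groups: the log2 fold change was -0.25 for Cd68, 0.0989 for Cd3e and 0.15 for Itgam, beside -0.27 for Ptprc. The part of these cells in the collagen values of crypts was not tested.

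For the most abundant tumor chains the crypt levels were Col1a1 0.482, 0.179 and 0.194 FPKM in wild-type and 0.122, 0.255 and 0.271 FPKM in knockout libraries. Col4a1 had 0.113, 0.0701 and 0.0427 FPKM in wild-type and 0, 0.048 and 0.0668 FPKM in knockout crypts. Both genes' groups overlapped, and Col4a1 took at most 13 fragments in a library. Across both tissues a fit of all 12 libraries tested whether the knockout effect differed between tumors and crypts, over 13370 genes that passed the filter in each. None passed, 0% of the genes tested, and 8.47% had an unadjusted p under 0.05. Of the 4 collagen genes in this fit 3, namely Col3a1, Col6a1 and Col18a1, were among the latter, and Col20a1 was not. As these genes passed the crypt filter only through wild-type crypts and would have failed it at their knockout level, this count is no evidence of direction. With no filter 13 of 40 collagen genes had an unadjusted p under 0.05, beside 2010 of 25170 genes in all. Most of these 40 were close to 0 in crypts, where the 0.5 FPKM added before the log keeps a fold change near 0. For them the difference mostly restates the tumor fold change, so this count is no evidence of a difference between tissues. The difference, tumor effect minus crypt effect, was 1.21 log2 for Col3a1 and 1.03 for Col6a1, each with a limma adjusted p of 0.437, and 1.25 for Col18a1 with a limma adjusted p of 0.469. Differences in level between the tissues were not tested, since the tables were normalized separately.

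Enzymes that hydroxylate and fold collagen chains formed the first list of partner genes. Of 19 genes 18 were tested in tumors, 16 were higher in the knockout, 10 had an unadjusted p under 0.05, all higher, none had an adjusted p under 0.05, and the median log2 fold change was 0.35. P3h2, 1 of the 16, passed the filter only through the knockout group. Over all genes tested 51.3% were higher and 8.46% were higher at an unadjusted p under 0.05. The prolyl hydroxylase P4ha1 had the smallest p of the list, with 7.96, 8.68 and 7.31 FPKM in control and 12.6, 13.6 and 18.8 FPKM in knockout tumors. Its groups were well apart, and the log2 fold change was 0.85 with a limma adjusted p of 0.269. For the propeptide proteases 5 of 8 genes were tested, all higher in the knockout, with a median of 0.36, of which Adamts3 passed the filter only through the knockout group. Among them Pcolce, an enhancer of propeptide removal, had 8.71, 6.61 and 6.65 FPKM in control and 10.01, 13.8 and 11.1 FPKM in knockout tumors. The groups did not overlap, and the limma adjusted p was 0.269. All 5 crosslinking enzymes were tested and higher, with a median of 0.30. Of these Loxl2 had 17.2, 16.3 and 14.1 FPKM in control and 18.3, 18.1 and 22.1 FPKM in knockout tumors, without overlap, with a limma adjusted p of 0.342.

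The 7 fibril organisers, proteins that bind collagen and shape fibrils, were all tested and all higher in the knockout, with a median log2 fold change of 0.38. Of these 4 had an unadjusted p under 0.05. Among all genes tested 51.3% were higher, and 8.46% were higher with such a p. Sparc, a collagen-binding glycoprotein, had 135, 95.7 and 83.7 FPKM in control and 150.2, 161 and 176 FPKM in knockout tumors. All knockout tumors were above all controls, and the limma adjusted p was 0.28. Of 9 collagen receptors tested 8 were higher, with a median of 0.29, and the one with the smallest p was the integrin chain Itga11, at 1.08, 1.13 and 1.11 FPKM in control and 1.93, 1.81 and 2.1 FPKM in knockout tumors. Control values of Itga11 were almost equal, and the limma adjusted p was 0.269. Of 6 genes of collagen degradation tested 4 were higher, with a median of 0.23, and the one with the smallest p was the protease Ctsk, at 9.97, 7.22 and 7.78 FPKM in control and 13.3, 15.4 and 9.8 FPKM in knockout tumors. Its groups overlapped at control replicate 1 and knockout replicate 3, with a limma adjusted p of 0.302. TGF-β is a known inducer of collagen genes. In its list 6 of 10 genes were higher in the knockout, with a median of 0.21, and its target Ctgf had 22.6, 26.2 and 19.8 FPKM in control and 43.8, 45.4 and 32.4 FPKM in knockout tumors. The groups of Ctgf did not overlap, and the limma adjusted p was 0.269. In crypts no gene of the partner lists had an unadjusted p under 0.05. In all these lists none had an adjusted p under 0.05.

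**Figure D5:**
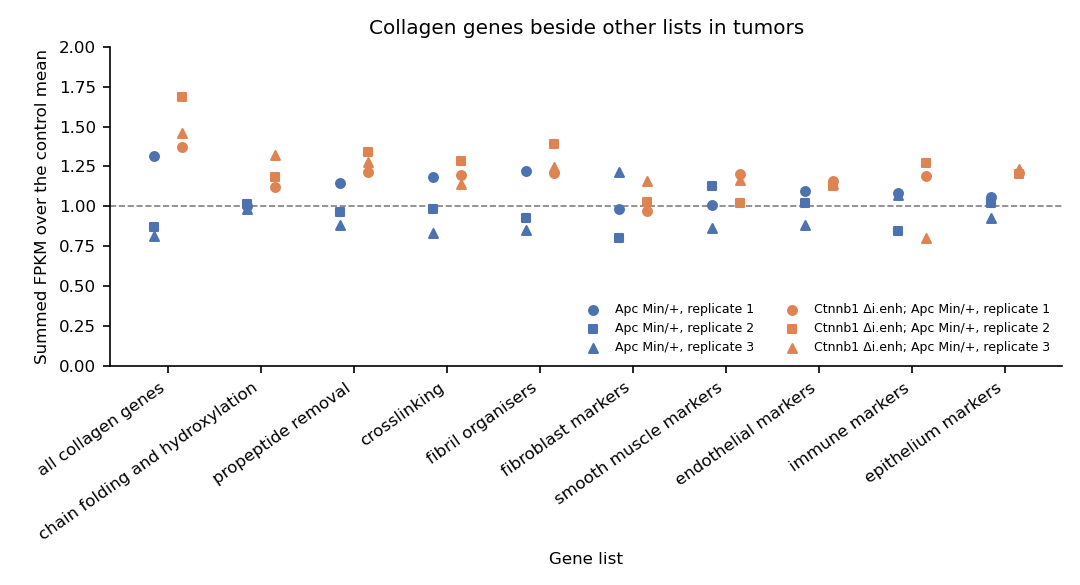
Summed FPKM of gene lists in each tumor library divided by the mean of the controls, with circles, squares and triangles for replicates 1, 2 and 3 of each genotype and a dashed line at 1. The collagen genes are higher in the knockout by a factor of 1.51 on average, the fibroblast markers by 1.05 and the epithelium markers by 1.22.

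Markers of the cells that make collagen were set beside these values. Fibroblast markers summed to 225, 184 and 279 FPKM in control and 222, 236 and 265 FPKM in knockout tumors. The groups overlapped, but Vim supplied 74.0% of the sum, and without an abundance weight 5 of the 6 genes tested were higher in the knockout, 3 with an unadjusted p under 0.05, with a median log2 fold change of 0.45. The shares over all genes tested were 51.3% and 8.46%. S100a4 and Twist2 were at or below 0.424 FPKM in all tumors. Pdgfra had 17.4, 16.2 and 15.4 FPKM in control and 19.4, 22.5 and 19.99 FPKM in knockout tumors, without overlap. The smooth muscle list summed to 151, 169 and 129 FPKM against 180, 152 and 174 FPKM, 63.1% of it Acta2, and its groups overlapped. Of its 6 genes 3 were higher and 3 lower in the knockout, with a median log2 fold change of 0.0708. The lower ones were Cnn1, Des and Actg2, at -0.27, -0.18 and -0.0134. Acta2, also a marker of activated fibroblasts and named after its values had been seen, had 102, 88.0 and 78.2 FPKM in control and 112, 107 and 115 FPKM in knockout tumors. Its groups did not overlap, and the log2 fold change was 0.32 with a limma adjusted p of 0.319. Tagln, a defining marker of that list, was at or below 0.721 FPKM and also without overlap, higher in the knockout. Its control mean of 0.464 FPKM was below the filter, so it passed only through the knockout group and had to be higher. Endothelial markers summed to 38.5, 35.9 and 31.1 FPKM against 40.8, 39.8 and 40.0 FPKM, with Cdh5 the most abundant and a median of 0.0752 over 6 genes. This sum was higher in every knockout tumor than in every control. Its gene with the smallest p, Pecam1, had 8.93, 7.15 and 6.92 FPKM in control and 10.3, 10.8 and 11.1 FPKM in knockout tumors. Pecam1, named after its values had been seen, had a log2 fold change of 0.47 and a limma adjusted p of 0.269. Ptprc of leukocytes, named after its values had been seen, overlapped between groups, at 2.81, 2.02 and 2.29 FPKM against 2.42, 3.05 and 1.3 FPKM. Its log2 fold change was -0.11, and those of Cd68, Itgam and Adgre1, chosen in the same way, were 0.0248, 0.0232 and 0.31, also with overlapping groups.

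Epithelial markers were higher in the knockout for all 7 genes, beside 51.3% of all genes tested, with a median log2 fold change of 0.35. Of the 7, 2 had an unadjusted p under 0.05, beside 8.46% of all genes tested that were higher with such a p. The 7 genes summed to 3254, 3140 and 2853 FPKM in control and 3730, 3710 and 3798 FPKM in knockout tumors. The crypt base list, led by Lyz1, summed to 1275, 1480 and 1644 FPKM in control and 2131, 3073 and 1202 FPKM in knockout tumors, and overlapped. Mesothelium markers, 98.5% of them Msln, summed to 8.96, 11.7 and 15.4 FPKM against 14.1, 7.31 and 12.8 FPKM. Knockout replicate 2, the highest library for most collagens, also had the highest Cdx2, 26.5 FPKM beside 2.01 to 10.2 FPKM in the other tumors. Whether a different share of stromal cells or of tissue in a tumor sample had a part in the collagen values was not tested.

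By position the 44 genes are spread over 15 chromosomes, with 7 on chromosome 1 and 6 on chromosome 9. There are 8 pairs of neighbours less than 100 kilobases apart. In the pair Col3a1 and Col5a2, 24.6 kilobases apart, both genes had an unadjusted p under 0.05, and so had both genes of Col4a1 with Col4a2 and of Col6a2 with Col6a1. Pairs with a member below the filter, such as Col4a4 with Col4a3, gave no such comparison, and in Col6a5 with Col6a4 this held for Col6a4 only. Exon bases are shared with another gene by 13 of the 44, for 3 of them on the same strand. Col4a1 and Col4a2 share 22 such bases and Col20a1 shares 79 with a transcript on its own strand, and the use of strand in counting is not stated.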

How the data were processed

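The authors deposited FPKM for each gene and library in 1 table per tissue. Per the study's methods, reads were aligned with Hisat2 and counted with featureCounts; the submitters' notes also list Cufflinks 2.2.1 without saying at which step, so how these FPKM were computed is not known. FPKM times gene length gave whole multiples of a single step (within 0.05 of a fragment or 0.01% of it), read here as fragments. Samples were grouped by their labels. Members and lists were chosen with earlier results of these data known. Genes with a mean of at least 0.5 FPKM over the 6 libraries of a tissue were fitted with limma 3.58.1 (R 4.3.3) on log2(FPKM + 0.5) with a variance trend and no covariate, with Benjamini-Hochberg adjustment over all genes tested and a threshold of 0.05. A fit of all 12 libraries tested tissue by genotype. Chain ratios were compared with exact two-sided permutation tests (Python 3.11.15, scipy 1.17.1). The procedure was tested on simulated data. Values in every library are given for the 3 highest chains of the fibrillar, type IV and type VI classes, the highest of each other class, members with an unadjusted p under 0.05 and groups that did not overlap, their partner chains, and in each partner list the gene with the smallest p. Limits given for a count of 0 are 3 fragments in the shallowest library and cover counting error only. Alternatives were other pseudocounts, filters, scalings and variance settings, protein-coding genes, a replicate block, limma-voom, leaving out libraries, and, added after the data were seen, coding-transcript length, group means without a pseudocount and leaving out replicate 3 of both tumor genotypes.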

Additional observations from a re-analysis of the deposited data

Results flagged for a closer look

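Col18a1 lay higher in all 3 knockout tumors than in all 3 control tumors and lower in all 3 knockout crypts than in all 3 wild-type crypts. The difference of the knockout effect, tumors minus crypts, was 1.25 on the log2 scale, and the limma test of that difference gave an adjusted p of 0.469 over 13370 genes, so it did not pass the threshold. In fits without a library the difference ranged from 1.05 to 1.57. In crypts its mean was 0.689 FPKM in wild-type and 0.435 FPKM in knockout libraries, so it passed the filter of 0.5 FPKM only through the wild-type group and had to be lower in the knockout. There Col18a1 took 40 to 96 fragments in a library. Its source within either tissue was not tested.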

How the results depend on the processing

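Over the alternatives, 922 values were computed for 63 results. Of these, 878 kept their direction and side of the threshold or moved by less than the replicate spread. No collagen gene had an adjusted p under 0.05 under any alternative in tumors, in crypts or for their difference. In tumors the collagen genes at an unadjusted p under 0.05 numbered 7 to 17 without a library, beside 1399 to 2755 of 16743 genes in all. They numbered 12 with the replicate number as a block, which the labels do not show to be a pairing, beside 1882 genes in all. Without replicate 3 of both genotypes they numbered 2, where fewer samples were fitted and no count over all genes was kept. Those 2 libraries held Xist, an RNA of female cells (114 and 61.4 FPKM). Tumors with and without Xist thus stood in each genotype, the labels do not give the sex of the mice, and its part was not tested. Their median log2 fold change was 0.32 with no filter, over 44 genes, of which 32 were higher, in place of 26 of 30, where 3 had passed only through the knockout group, and without a variance trend 1 gene in all had an adjusted p under 0.05. In crypts the 4 genes passed the filter only through the wild-type group, so their direction is no evidence under any alternative. Their count of 1 became 0 after rescaling to the same sum, with quantile normalization and with the block, 2 without a variance trend and with protein-coding genes only, 3 with limma-voom, and 0 to 1 without a library. Over all genes tested, 680 to 893 had an unadjusted p under 0.05 in these fits and 462 to 1344 without a library, beside 829 in the main fit. Over the 4 genes, the crypt median was -0.40 in the main fit, -0.66 with a pseudocount of 0.1 and -0.79 with limma-voom. These medians are no evidence of a lower level in the knockout, as the filter had fixed their sign. With no filter the crypt median was -0.0425, over 40 genes. In crypts 0 to 3 genes in all passed without a library. A mean of at least 1 FPKM left no collagen gene in crypts. For the difference between tissues, no filter gave 13 of 40 collagen genes at an unadjusted p under 0.05, in place of 3 of 4. Over all genes 2010 of 25170 had such a p, and the collagen median was 0.41. Most of the 40 lay close to 0 in crypts, so that difference mostly restates their tumor fold change. A pseudocount of 0.1 gave a median of 1.41 over the 4 genes and 1 gene in all with an adjusted p under 0.05. Without a library, Col4a5 ranged from -0.0026 to 0.75 and Col28a1 from -0.12 to 0.37 in tumors. Differences of chain ratios near 0 took either sign without a library, from -0.14 to 0.16 for Col1a1/Col1a2, -0.18 to 0.13 for Col3a1/Col1a1, -0.0619 to 0.0062 for Col4a1/Col4a2, -0.45 to 0.0827 for Col4a5/Col4a6 (0.19 with a pseudocount), -0.0850 to 0.0685 for Col5a1/Col5a2 and -0.10 to 0.10 for Col6a3/Col6a1. Where not given by the alternative's construction, the cause was not tested. Depth limits the crypt values, where a library held 392 to 862 collagen fragments.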
